A study of Mus musculus with 2 samples.

Results

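A set of 6 genes for growth factor signalling was followed across an imaging panel: the receptor tyrosine kinases Pdgfra, Egfr, Fgfr1 and Ror2, the TGF-beta co-receptor Tgfbr3 and the TGF-beta ligand Tgfb2. They were chosen by name and are 6 of the 140 genes of the panel, which also carries 40 blank barcodes that match no gene. Transcripts were counted in single cells with MERSCOPE, a microscope platform that reads barcoded fluorescent probes on single RNA molecules in tissue sections. The samples were C57Bl6 mice for which no treatment or allele is named, 1 male (replicate 1) and 1 female (replicate 2), given as 6 to 10 weeks old in one label and as 6 weeks old in another. Frozen sections of duodenum and colon, fixed in paraformaldehyde and 10 µm thick, were imaged together as biological replicates, and the title of the series names enteric glia and motility as its subject. Each animal has 2 imaged regions, numbered 0 and 1. No label says which region holds duodenum and which colon, so the regions are kept by number and are not matched between the animals.

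PDGFRA is the receptor for PDGF ligands and in the gut wall is a common marker of fibroblasts, including those that lie under the epithelium. EGFR receives EGF-family ligands and drives renewal of the intestinal epithelium, FGFR1 is a receptor for fibroblast growth factors that is widely used in mesenchyme, and ROR2 is a receptor for WNT5A in the non-canonical WNT pathway, which guides cell polarity and movement. TGFBR3, or betaglycan, is a co-receptor that presents TGF-beta ligands to the signalling receptors and binds TGF-beta 2 in particular, the ligand that Tgfb2 encodes.

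Depth sets what can be said of these genes. Male regions 0 and 1 held 7775 and 4068 segmented cells with 3048 and 582 panel counts, and female regions 0 and 1 held 6343 and 13707 cells with 4288 and 45942 panel counts, so the median cell had 0 counts in all regions but female region 1, where it had 1. No cell identifier was found in more than 1 table (0 of 31893 repeated). The highest blank barcode, used here as the background, had 9, 2, 33 and 46 counts in the same order, and blanks took 1.39%, 1.19%, 3.36% and 1.23% of all counts. Markers of absorptive colon epithelium lay almost wholly in female region 1, where Aqp8 had 3811 counts and Slc26a3 3272, against at most 20 and 10 in any other region. The gland mucin Muc6, the only duodenum marker of 8 listed that the panel carries, had 610 counts in female region 0 and at most 11 elsewhere. The panel carries no listed marker of endothelium, immune cells or interstitial cells of Cajal, 3 of 12 for fibroblasts and 2 of 7 for smooth muscle, so these cell types could be checked only in part or not at all. Levels below are counts per 10000 panel counts unless a scale is named, with exact 95% intervals in brackets. The intervals cover counting error only, and with 1 section per region and 1 animal per sex no comparison could be tested.

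All 6 genes lay above the highest blank in female region 1, the deepest region, where 66.4% of the 140 panel genes did. In male region 0, 4 of the 6 did (Pdgfra, Egfr, Fgfr1 and Tgfbr3), against 32.9% of the panel. In male region 1 there were 3 (Pdgfra, Fgfr1 and Tgfbr3), against 37.9%. In female region 0 only Fgfr1 and Tgfbr3 passed, against 16.4%. Fgfr1 and Tgfbr3 were thus the members above background in every region. Together the 6 genes gave 24.9% of the panel counts of male region 0, 19.2% of male region 1, 7.84% of female region 0 and 3.39% of female region 1. Fgfr1 alone made up 665 of these 760 counts, 74 of 112, 168 of 336 and 431 of 1558. The number of counts a gene yields also depends on its probes, so levels are compared for 1 gene at a time and not between genes.

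**Figure D1:**
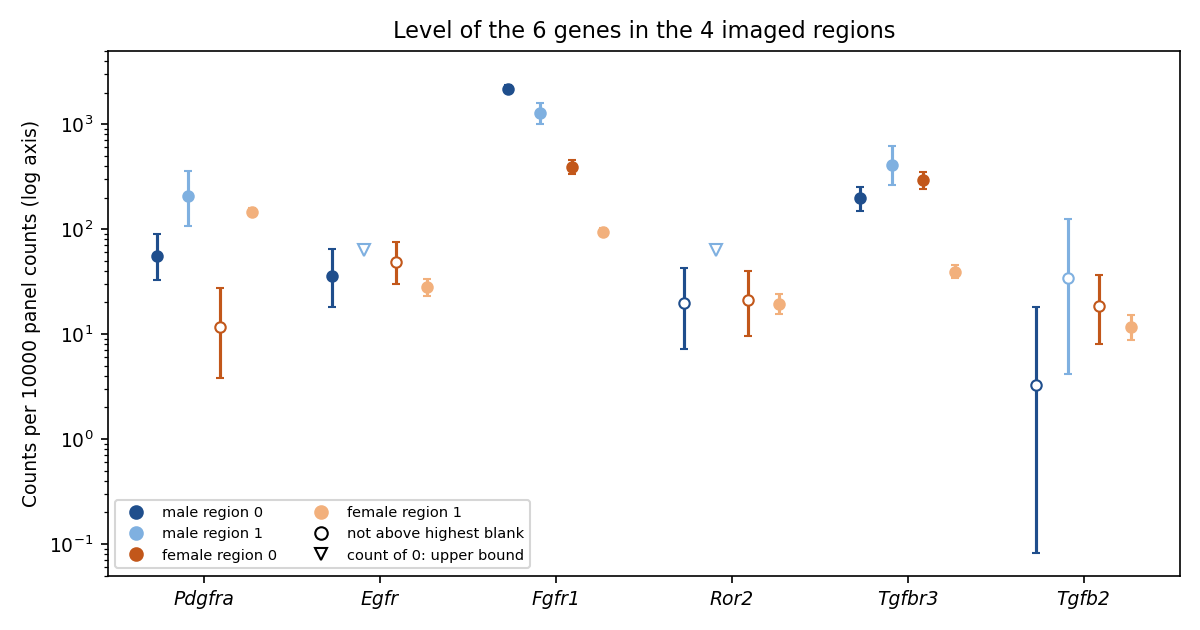
Level of each gene in the 4 imaged regions, in counts per 10000 panel counts on a log axis, with exact 95% Poisson intervals that cover counting error only. Open circles are counts that do not exceed the highest blank barcode of the region, and open triangles are the upper bound for a count of 0. Fgfr1 falls from 2182 in male region 0 to 93.8 in female region 1. Most values of Egfr, Ror2 and Tgfb2 do not exceed the highest blank, so their range over the regions cannot be read.

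Among the receptor kinases, only Fgfr1 lay above the highest blank in every region. It was counted 665, 74, 168 and 431 times in the 4 regions, taken throughout in the order male 0, male 1, female 0 and female 1. The corresponding levels were 2182 (2019 to 2354), 1271 (998 to 1596), 392 (335 to 456) and 93.8 (85.2 to 103). No neighbours in this order had overlapping intervals, but the intervals take counts as independent and do not cover clumping in few cells. Without its cells of at least 10 Fgfr1 counts, male region 0 was at 1290, inside the interval of male region 1. Over the animals its level was 1078 ± 1355 (SD, n = 2), from 2036 in the male and 119 in the female, which makes it 17.1-fold higher in the male, a female to male ratio of 0.0586. That ratio was 0.479 per cell, 0.192 without female region 1 and 0.0927 without the cells of at least 10 Fgfr1 counts described next.

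Part of the male level sat in very few cells. Male region 0 had 199 cells with Fgfr1, of which 78 had at least 2 counts and 1 cell had 69, and its 10 richest cells held 43.8% of the Fgfr1 counts. The variance of Fgfr1 over cells was 19.5 times its mean there, against a median of 2.92 over the 24 panel genes with at least 20 counts in that region. In male region 1, female region 0 and female region 1 the highest cell had 5, 3 and 9 counts, and the variance over the mean was 1.50, 1.25 and 1.51. Cells with at least 10 Fgfr1 counts, a limit chosen after the values were seen, were found only in male region 0, where 14 cells held 331 counts, or 49.8% of the gene's counts. Fgfr1 made up 72.1% of everything counted in these 14 cells, and the next genes were Stard13 with 30 counts, 17 of them in 1 cell, and Clec2h with 22 counts, 18 of them in 1 cell. Without these cells the level of male region 0 was 1290, beside 1271 in male region 1, a ratio of 1.01 (0.787 to 1.32) in place of 1.72.

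**Figure D2:**
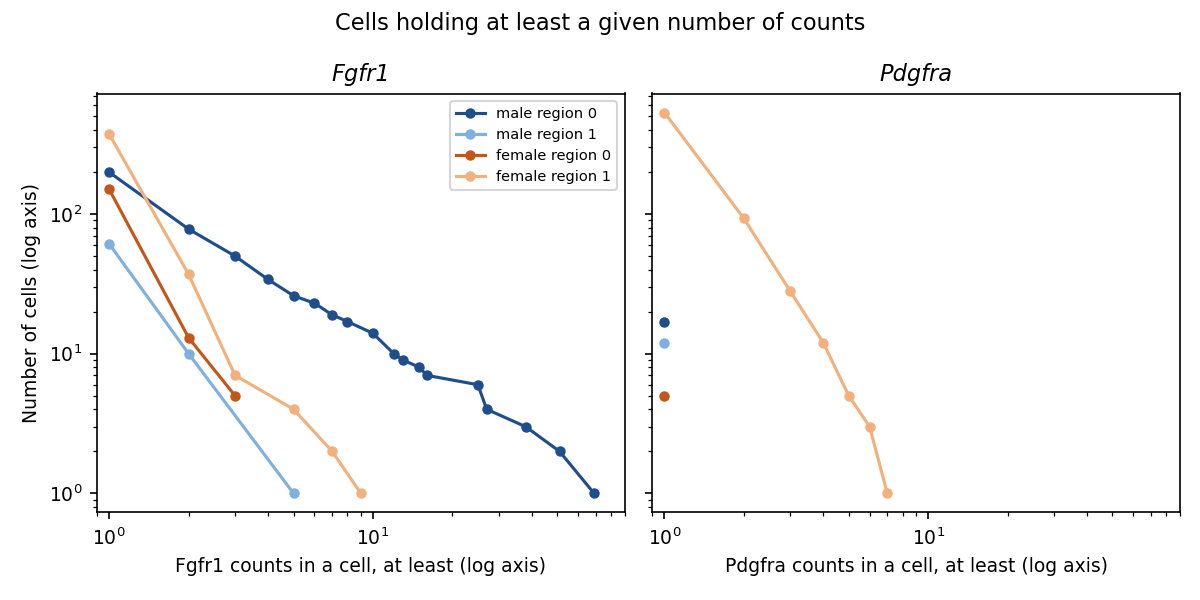
Number of cells that hold at least a given number of Fgfr1 counts (left) or Pdgfra counts (right), 1 line per region, both axes logarithmic. The Fgfr1 line of male region 0 reaches 69 counts in 1 cell, whereas Pdgfra passes 1 count per cell only in female region 1, where it reaches 7.

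Fgfr1 was also often the only panel gene in its cell. Of the cells with Fgfr1, 52.8% (45.6 to 59.9), 62.3%, 62% (53.7 to 69.8) and 9.92% had no other panel count, in the order of regions given above. The median panel gene with at least 20 counts had 19.6%, 40.7%, 29% and 5.06% in the same regions. A higher share than that of Fgfr1 was seen for 0 of 24 such genes in male region 0, 1 of 8 in male region 1, 1 of 35 in female region 0 and 9 of 121 in female region 1. Tgfbr3 was at 27.8%, 35.3%, 26.9% and 5.75%. Other members had shares as high as those of Fgfr1 on few cells: Pdgfra had 52.9% of 17 cells and 66.7% of 12 in the male regions, while 66.7% of the 6 Ror2 cells of male region 0, and of the 9 of female region 0, had no other count.

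Pdgfra was found in at most 17 cells of any region other than female region 1. Its counts were 17 in male region 0, 12 in male region 1, 5 in female region 0 and 675 in female region 1. Those counts correspond to levels of 55.8 (32.5 to 89.3), 206 (107 to 360), 11.7 and 147 (136 to 158), and the count of female region 0 did not exceed the highest blank. In female region 1, 533 cells had the transcript and 93 had at least 2 counts. No cell of the other 3 regions had more than 1 Pdgfra count. The 2 regions with the highest levels, male region 1 and female region 1, had overlapping intervals, and both lay above male region 0. Over the animals the level was 108 ± 39.2 (SD, n = 2).

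Egfr and Ror2 had few counts in every region. Egfr had 11, 0, 21 and 128 counts, for levels of 36.1 (18 to 64.6), 0 with an upper bound of 63.4, 49 and 27.9 (23.2 to 33.1). It exceeded the highest blank in male region 0, by 11 counts to 9, and in female region 1. For the 0 in male region 1, a floor of 3 counts allows a level of 51.5. Ror2 had 6, 0, 9 and 89 counts, for levels of 19.7, 0 with the same bound and floor, 21 and 19.4 (15.6 to 23.8), and only the last lay above the highest blank. Per panel count the 2 animals gave Egfr at 30.0 ± 0.452 and Ror2 at 18 ± 2.11 (SD, n = 2), with the male Ror2 counts under the highest blank. Per cell, Egfr was 8.0-fold (4.34 to 16.4) and Ror2 9.65-fold (4.28 to 26.9) higher in the female, whose cells held more counts of the panel as a whole. Each was spread thinly in female region 1, where Egfr was in 122 cells, 6 of them with at least 2 counts, and Ror2 in 86 cells, 3 of them with at least 2 counts.

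Of the TGF-beta genes, the co-receptor was the one found in every region. Tgfbr3 had 60, 24, 125 and 181 counts, for levels of 197 (150 to 253), 412 (264 to 614), 292 (243 to 347) and 39.4 (33.9 to 45.6). Female region 1 lay below the other 3 regions, male region 1 lay above male region 0, and female region 0 overlapped with both male regions. Over the animals Tgfbr3 was at 146 ± 121 (SD, n = 2), from 231 in the male and 60.9 in the female. The ligand Tgfb2 had 1, 2, 8 and 54 counts, for levels of 3.28, 34.4, 18.7 and 11.8 (8.83 to 15.3). It passed the highest blank only in female region 1, and there the interval of its count (40.6 to 70.5) still spanned the 46 counts of that blank.

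Pdgfra and the pair Fgfr1 and Tgfbr3 moved in opposite directions between the female regions. Pdgfra was 12.6-fold higher in female region 1 than in female region 0 (5.37 to 38.9), with the lower side under its highest blank. Fgfr1 was 4.18-fold (3.47 to 5.00) and Tgfbr3 7.40-fold lower in female region 1. Thus 1 member was at least 2-fold higher, beside 33.1% of 127 panel genes, and 2 were at least 2-fold lower, beside 26.8%. For Egfr, Ror2 and Tgfb2 the ratios were 0.569 (0.357 to 0.951), 0.923 (0.465 to 2.08) and 0.630 (0.298 to 1.53). Counted per cell instead, Fgfr1 was 1.19-fold (0.991 to 1.43) and Egfr 2.82-fold (1.77 to 4.71) higher in female region 1, and so were Ror2 at 4.58-fold (2.31 to 10.3) and Tgfb2 at 3.12-fold (1.48 to 7.60). Tgfbr3 was then 1.49-fold lower, and only Pdgfra and Tgfbr3 kept their direction on both scales.

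Between the male regions, 3 members had enough counts to compare. Pdgfra was 3.70-fold (1.61 to 8.21) and Tgfbr3 2.09-fold (1.25 to 3.41) higher in male region 1. These are 2 members at least 2-fold lower in male region 0, beside 11.5% of 26 panel genes, and none was 2-fold higher, beside 26.9%. Per cell, Tgfbr3 turned and was 1.31-fold higher in male region 0 (0.802 to 2.20), and the Pdgfra ratio of male region 0 over male region 1 was 0.741 with an interval that includes 1 (0.334 to 1.70). Between the animals, Fgfr1 and Tgfbr3 were at least 2-fold lower in the female, beside 35.3% of 136 panel genes, and no member was 2-fold higher, beside 29.4%. Pdgfra was 1.69-fold higher in the female (1.17 to 2.55), but without female region 1 the ratio was 0.146. Tgfbr3, 3.80-fold higher in the male, had a female to male ratio of 1.26 without female region 1. Sex, region and tissue cannot be told apart in these animals.

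Marker genes then split the cells of female region 1 into groups. Cells with at least 3 counts of Aqp8 and Slc26a3, the water channel and the chloride exchanger of absorptive colon cells, numbered 650. Cells with at least 2 counts of Des, the intermediate filament of muscle, numbered 264, and cells with at least 2 counts of Fn1 and Vim, a matrix and a filament gene of stromal cells, numbered 979. By these markers alone, the first are called absorptive cells, the second Des cells and the last Fn1 and Vim cells or stromal cells. In none of these were 11928 cells, and 114 cells fell into 2 groups, 89 of them Des cells that were also Fn1 and Vim cells. No cell of either male region met any threshold, and female region 0 had 1 Aqp8 and Slc26a3 cell and 1 Fn1 and Vim cell, so all group values come from 1 section of 1 animal. The muscle kinase gene Dmpk, not used for grouping, was at 3540 in Des cells, 1007 in Fn1 and Vim cells, 522 in ungrouped cells and 63.3 in Aqp8 and Slc26a3 cells, on a scale per 10000 counts outside the 5 grouping genes. Group levels below use this scale. Depth differed with the groups: the median cell had 11.5 such counts among Aqp8 and Slc26a3 cells, 4 in both other groups and 0 among ungrouped cells.

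Pdgfra, Fgfr1, Tgfbr3 and Ror2 were low in the absorptive cells, and Egfr was not. Pdgfra was at 71.6 in Aqp8 and Slc26a3 cells (69 counts), 130 in Des cells (20 counts), 348 in Fn1 and Vim cells (193 counts) and 242 in ungrouped cells (410 counts). Fgfr1 was at 45.6, 222, 236 and 146 in the same order, from 44, 34, 131 and 247 counts. Tgfbr3 was at 19.7, 91.3, 101 and 60.1, from 19, 14, 56 and 102 counts. For these 3 genes the Fn1 and Vim cells had the highest level, although Des cells overlapped with them for Fgfr1 and Tgfbr3. Ror2 was highest in Des cells, at 8.30, 91.3, 43.2 and 30.6, from 8, 14, 24 and 52 counts. Egfr was highest in the absorptive cells, at 57.1, 13, 21.6 and 37.7, from 55, 2, 12 and 64 counts. Tgfb2 gave 17.6, 6.52, 14.4 and 17.1, from 17, 1, 8 and 29 counts, and its groups overlapped.

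**Figure D3:**
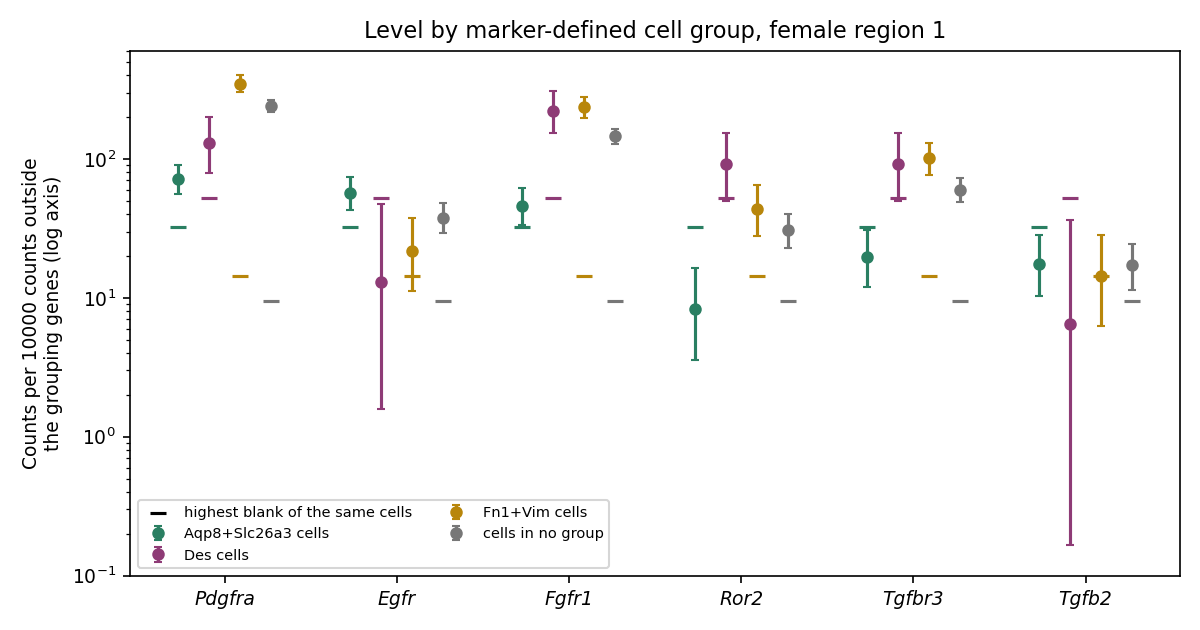
Levels of the 6 genes in 4 sets of cells of female region 1, in counts per 10000 counts outside the 5 grouping genes on a log axis, with exact 95% intervals. Short bars mark the highest blank barcode of the same cells. Pdgfra, Fgfr1 and Tgfbr3 are highest in Fn1 and Vim cells, Ror2 in Des cells and Egfr in Aqp8 and Slc26a3 cells, and Tgfb2 lies above the highest blank only in ungrouped cells.

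Set against ungrouped cells, the absorptive cells held less of 4 members. Pdgfra was 3.37-fold (2.61 to 4.42), Ror2 3.69-fold, Fgfr1 3.19-fold and Tgfbr3 3.05-fold lower. These 4 of 6 stand beside 47.2% of 108 panel genes that were at least 2-fold lower, and the median panel gene had a ratio of 0.597. None of the 6 was 2-fold higher, beside 10.2%. Ror2 and Tgfbr3 lay below the highest blank of the absorptive cells, which was at 32.2. In cells with at least 10 counts, Pdgfra had a ratio of 0.351 and Ror2 0.215, while Fgfr1 moved to 0.522 and Tgfbr3 to 0.742 (0.336 to 1.73). Per cell all 4 turned and were higher in the absorptive cells, at 3.09, 2.82, 3.27 and 3.42 for Pdgfra, Ror2, Fgfr1 and Tgfbr3, beside the greater depth of these cells. Egfr was 1.51-fold higher (1.04 to 2.20), but blank barcodes were 1.62-fold higher in the same cells (1.34 to 1.95). With at least 10 counts per cell the Egfr ratio was 1.15 (0.637 to 2.20).

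In Des cells the Ror2 level was 2.98-fold that of ungrouped cells (1.52 to 5.46), where blanks were also 2.23-fold higher (1.61 to 3.04). It was the only member at least 2-fold higher, beside 20.2% of 99 panel genes, and 2 were at least 2-fold lower, Egfr and Tgfb2, with 2 counts and 1 count in Des cells, beside 30.3%. Fgfr1 was 1.52-fold higher (1.03 to 2.19), but without the cells that fell into 2 groups its ratio was 0.911, and with the grouping genes in the total it was 0.939. Pdgfra had a ratio of 0.540 and turned per cell, at 2.20. The Ror2 ratio was 1.84 (0.939 to 3.36) with the grouping genes in the total and 1.74 (0.297 to 7.25) in cells with at least 10 counts, and both intervals include 1.

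In Fn1 and Vim cells, 3 members had an interval above 1 and none was 2-fold higher, beside 8.65% of 104 panel genes, or 2-fold lower, beside 6.73%. Pdgfra was 1.44-fold (1.21 to 1.71), Fgfr1 1.62-fold (1.30 to 2.01) and Tgfbr3 1.68-fold (1.19 to 2.35) higher than in ungrouped cells, beside a median of 1.17 over the panel genes and 1.13 for the blanks. Ror2 had a ratio of 1.41 (0.83 to 2.33), Egfr 0.573 (0.28 to 1.07) and Tgfb2 0.844. The total decides these values: with Fn1, Vim and the other grouping genes counted in it, Pdgfra was at 0.968 and Fgfr1 at 1.09, and no member kept an interval above 1.

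A direct comparison of stromal with absorptive cells gave wider gaps. Among cells of 1 group only, 865 Fn1 and Vim cells and 625 Aqp8 and Slc26a3 cells, Pdgfra was 6.08-fold (4.54 to 8.25), Fgfr1 5.25-fold (3.66 to 7.64), Tgfbr3 5.27-fold (3.03 to 9.53) and Ror2 5.44-fold (2.00 to 17.1) higher in the Fn1 and Vim cells. Egfr was 3.41-fold lower there (1.54 to 8.90), and Tgfb2 had a ratio of 0.897 (0.314 to 2.28). Over all Aqp8 and Slc26a3 cells, Ror2, Tgfbr3 and Tgfb2 lay below the highest blank of 32.2. The ratios of these genes are thus taken over counts at background. Blank barcodes had a ratio of 0.557 (0.407 to 0.752), so Egfr alone among the 6 moved the way of the blanks with an interval below 1. At least 2-fold higher were 4 of the 6, beside 53.0% of 83 panel genes, and 1 was at least 2-fold lower, beside 22.9%. The median ratio was 5.26 over the 6 genes and 2.18 over the 83. Per cell, where the deeper absorptive cells count for more, Pdgfra was 2.02-fold, Fgfr1 1.74-fold, Ror2 1.81-fold (0.662 to 5.68) and Tgfbr3 1.75-fold higher in the Fn1 and Vim cells.

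**Figure D4:**
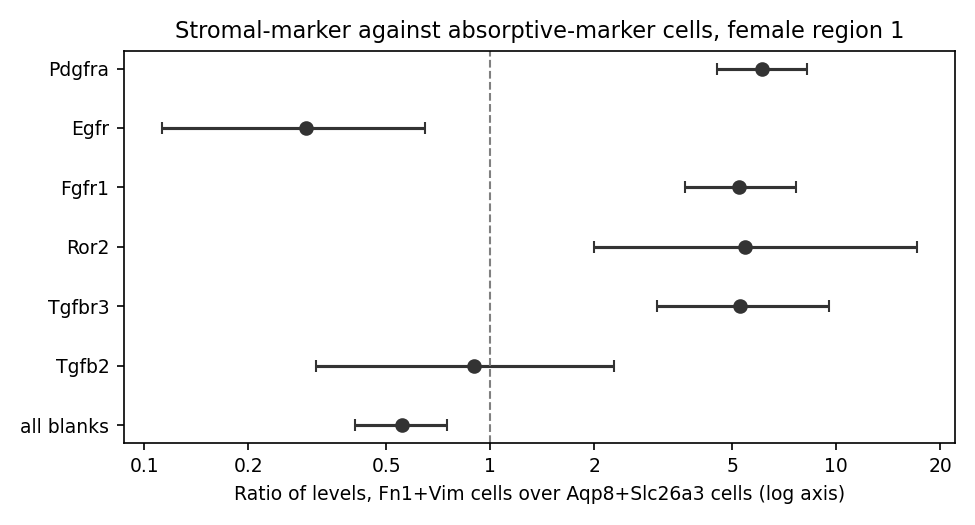
Ratio of levels in Fn1 and Vim cells over Aqp8 and Slc26a3 cells of female region 1, cells of 1 group only, on a log axis with exact 95% binomial intervals that cover counting error only. Pdgfra, Fgfr1, Ror2 and Tgfbr3 lie between 5.25 and 6.08, Egfr lies at 0.293, Tgfb2 spans 1, and all blank barcodes together lie at 0.557. Over all Aqp8 and Slc26a3 cells, Ror2, Tgfbr3 and Tgfb2 lay below the highest blank.

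Fn1 and Vim cells and Des cells differed from each other for Pdgfra, which was 3.16-fold higher in Fn1 and Vim cells than in the 175 cells that were Des cells only (1.63 to 7.03). Ror2 had a ratio of 0.347 with an interval that reached 1 (0.133 to 1.005), and blanks had one of 0.404. Fgfr1 had a ratio of 1.91 (0.967 to 4.28). Against the absorptive cells, Des cells had 15.7-fold more Ror2 (4.52 to 56.6), from 7 against 6 counts, and 2.75-fold more Fgfr1 (1.18 to 5.72), with blanks at 1.38. The Ror2 level of the absorptive cells lay below their highest blank, so its fold is taken over counts at background.

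Within the stromal group no difference of another member between cells with and without Pdgfra was detectable at this depth. Of the 979 Fn1 and Vim cells, 127 had Pdgfra. Fgfr1 was at 214 in these and 251 in the 852 without, a ratio of 0.852 (0.507 to 1.37). Tgfbr3 had a ratio of 0.743 (0.304 to 1.59), Ror2 1.49 (0.483 to 3.91), Egfr 0.892 and Tgfb2 1.49, and all 5 intervals included 1. Over the whole of female region 1, Pdgfra and Fgfr1 shared 37 cells, a ratio of 0.853 (0.608 to 1.17) for Fgfr1 in cells with Pdgfra against cells without.

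Per other panel count, a few members had low ratios in the cells of another member. A low ratio on this scale does not show that members avoid the same cells. Whether fewer cells were shared than the numbers of cells with each gene would give was not tested. In cells of female region 1 with Egfr, Fgfr1 had 4 counts and a ratio of 0.20 (0.054 to 0.517), and Pdgfra had a ratio of 0.587 (0.346 to 0.935), which moved to 0.901 in cells with at least 10 counts. Egfr and Fgfr1 shared 4 cells there, where 122 and 373 of 13707 cells had them. For Tgfbr3 in cells with Pdgfra of that region the ratio was 1.12 (0.692 to 1.75), and 2.09 (1.12 to 3.72) with at least 10 counts. Read the other way, the Pdgfra ratio with at least 10 counts was 1.41 (0.843 to 2.23). Fgfr1 and Tgfbr3 shared 2 cells of male region 0, where 199 and 54 of 7775 cells had them. The Tgfbr3 ratio there was 0.0905 (0.011 to 0.342) in cells with Fgfr1. In cells with Tgfbr3 the Fgfr1 ratio was 0.0266 in male region 0, 0.068 in male region 1 and 0.187 (0.088 to 0.354) in female region 0. In female region 0 the pair shared 8 cells, where 150 and 93 of 6343 cells had Fgfr1 and Tgfbr3. The Tgfbr3 ratio in cells with Fgfr1 was 0.973 there (0.488 to 1.77). In male region 1 that ratio was 0.377 (0.009 to 2.32) from 1 count. Both readings thus had an interval below 1 only in male region 0. In cells of female region 0 with at least 10 counts the Fgfr1 ratio was 0.579 (0.124 to 2.28). These cells differ in depth, since at least 52.8% of the Fgfr1 cells in each of these 3 regions held no other panel count.

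Genes found beside each member were ranked by their level in cells with the member over cells without it, among genes with at least 20 counts in the cells with the member, and the first 3 are named. Cells with any blank count serve as the background for this measure, but they are not a neutral sample. In female region 1 their median was 11 panel counts, against 6 outside the member for cells with Fgfr1, Pdgfra or Tgfbr3. Aqp8 was at 2.33 and Fn1 at 0.376 beside blanks there. Beside Fgfr1 in female region 1 were Slit3, a secreted guidance ligand, at 2.95 (2.19 to 3.91), Cav1, the coat protein gene of caveolae, at 2.58, and Ano6, a membrane scramblase gene, at 2.13. In cells with a blank, Slit3 and Cav1 were at 0.313 and 0.443, and Ano6 at 0.951. Pdgfra had Col18a1, a basement membrane collagen gene, at 1.71 (1.10 to 2.57), Cav1 at 1.70 and the adiponectin receptor gene Adipor2 at 1.64. Beside blanks Col18a1 was at 0.272 and Adipor2 at 0.946. In cells with at least 10 counts the intervals of Col18a1 (0.870 to 3.01) and Cav1 (0.696 to 3.24) included 1, and Adipor2 was at 1.78 (1.18 to 2.64). Fn1 and Vim beside Pdgfra were at 1.10 (0.995 to 1.21) and 1.01 (0.835 to 1.21), and Fn1 at 1.28 (1.12 to 1.47) with at least 10 counts. Ror2 had Des at 3.18 (2.50 to 3.99), Dmpk at 2.27 and Fn1 at 1.43, and beside blanks these were at 0.773, 0.579 and 0.376.

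Egfr and Tgfb2 gave lists that the blanks gave as well. Beside Egfr were Aqp8 at 1.99 (1.77 to 2.23), the peroxiredoxin gene Prdx6 at 1.77 and Clec2h at 1.73, and beside blanks these genes were at 2.33, 1.91 and 1.54. Beside Tgfb2 were Aqp8 at 2.06, Slc26a3 at 1.93 and the cytoskeletal linker gene Ezr at 1.89, with 2.33, 1.84 and 1.91 beside blanks. At this depth the cells with either transcript could not be set apart from cells with a blank by these genes.

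**Figure D5:**
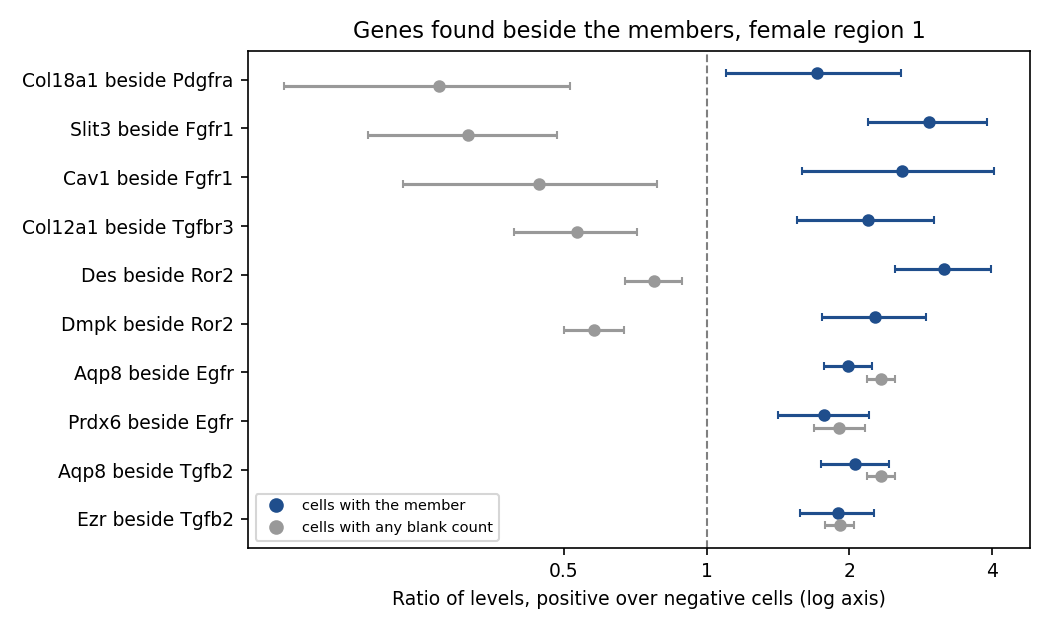
Ratio of a gene's level in cells with a member over cells without it (dark points) and in cells with any blank count over cells without (grey points), female region 1, log axis, exact 95% intervals that cover counting error only. For Pdgfra, Fgfr1, Tgfbr3 and Ror2 the pairs lie on opposite sides of 1, while for Egfr and Tgfb2 both points lie between 1.77 and 2.33. Per panel count, cells with a blank held more Aqp8 and less Fn1 than cells without, so the grey points are not a neutral reference.

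Tgfbr3 was found with the fibril-associated collagen gene Col12a1 in all 4 regions. In the order of regions used above, the Col12a1 ratio was 2.23 (1.52 to 3.20), 7.17 (3.60 to 14.5), 3.22 (2.62 to 3.94) and 2.19 (1.55 to 3.01). Beside blanks the ratios were 0.368, 1.10, 1.05 and 0.534. In male region 1 the value rests on 6 cells, 1 of which held 12 of the 21 Col12a1 counts, whereas in female region 0 50 of the 93 cells with Tgfbr3 had Col12a1. In cells with at least 10 counts the Col12a1 ratios of the 4 regions were 3.90, 3.78, 3.01 and 2.74. That of male region 1, from 3 cells with Tgfbr3, had an interval that includes 1 (0.592 to 158). Col12a1 was the only gene of male region 1 with enough counts to be ranked, so its rank there was fixed. It was number 2 of 8 ranked genes in female region 0 and number 1 of 19 in female region 1. In male region 0 it was number 4 of 6. Pfn2, with 15 of its counts in 1 cell, Abca8b at 3.17 and Prickle2 at 2.32 came first there. Col12a1 is given for that region because it had been seen in the others. In female region 1 Prickle2 at 1.59 (0.958 to 2.51) and Dmpk at 1.33 followed it. Fgfr1, set beside the same gene, had ratios of 0.182, 0.498, 1.45 and 1.70 in the 4 regions.

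In the other 3 regions the remaining lists rested on few cells, and no gene reached 20 counts beside Pdgfra. Beside Fgfr1 in male region 0, Clec2h was at 11.2, with 18 of its counts in 1 cell, Piezo2, a mechanically gated channel gene, at 5.64, and Stard13 at 4.10, and beside blanks these were at 3.99, 5.27 and 0.685. Beside Egfr in male region 0, where 11 cells had it, Ptprz1 was at 8.09, Dlgap1 at 3.20 and Prickle2 at 2.60, with 4.08, 2.56 and 2.76 beside blanks. In female region 0, Ptprz1 was at 9.66 beside Fgfr1, with 35 counts in 1 cell, and 32.8 beside blanks. Beside Tgfbr3 there, the synaptic gene Pclo was at 4.50 and the neurturin co-receptor gene Gfra2 at 2.92, with 2.31 and 1.16 beside blanks.

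Of 101 other genes listed for these pathways the panel carries 9, among them no other PDGF, EGF-receptor or TGF-beta receptor gene. They are Nrg3, an EGF-family ligand gene, Fgf14, which encodes an intracellular FGF homologous factor, Prickle2, a planar polarity gene, Ctnnb1, which encodes beta-catenin, Gfra1 and Gfra2, co-receptors for GDNF-family ligands, the ephrin receptor gene Epha5, the receptor phosphatase gene Ptprz1 and the stress kinase gene Mapk10. Of the 9, the 4 regions had 8, 6, 4 and 4 above the highest blank, beside 32.9%, 37.9%, 16.4% and 66.4% of the panel. In the groups of female region 1, 5 had at least 20 counts. In absorptive cells 1 of these was at least 2-fold lower, Prickle2 at 2.51-fold (1.72 to 3.75), beside 47.2% of panel genes. None was 2-fold higher there, beside 10.2%. In Des cells 3 were at least 2-fold higher, Gfra1 at 4.87, Gfra2 at 4.88 and Prickle2 at 2.07 (1.33 to 3.11), and Ctnnb1 was 3.11-fold lower, beside 20.2% and 30.3% of panel genes in those directions. Blanks were 2.23-fold higher in the same cells, so Prickle2 did not exceed them. In Fn1 and Vim cells only Gfra2 was at least 2-fold higher, at 2.16 (1.22 to 3.75), beside 8.65% of panel genes. None was 2-fold lower, beside 6.73%.

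Promoter sequences are shown for Egfr and Ror2, whose levels differed in opposite senses between stromal and absorptive cells. They are the 250 bases before the annotated start in RefSeq on mouse build GRCm38.p6, 5′ to 3′ on the strand of the gene, with capitals for the GC box GGGCGG or its reverse complement. The table held 4 of the 6 genes, and for Pdgfra and Tgfb2 its window did not end at the annotated start of the gene and is not shown.
Egfr, chr11:16751953-16752202, plus strand: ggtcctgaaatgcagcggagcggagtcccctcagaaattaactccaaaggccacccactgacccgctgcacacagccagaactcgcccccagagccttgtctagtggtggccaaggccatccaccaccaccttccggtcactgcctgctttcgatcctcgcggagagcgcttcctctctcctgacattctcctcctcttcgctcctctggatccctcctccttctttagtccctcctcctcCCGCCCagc
Ror2, chr13:53286125-53286374, minus strand: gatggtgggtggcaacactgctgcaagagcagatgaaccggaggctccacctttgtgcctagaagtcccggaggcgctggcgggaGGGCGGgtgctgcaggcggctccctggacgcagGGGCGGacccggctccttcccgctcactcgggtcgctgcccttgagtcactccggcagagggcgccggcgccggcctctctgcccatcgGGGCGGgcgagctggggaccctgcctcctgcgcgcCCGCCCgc
The Egfr window had 1 GC box and a GC content of 60.8%, higher than in 73.9% of all 32851 windows of this length, and the Ror2 window had 4 GC boxes and 73.2%, higher than in 94.3%. At least 1 GC box was found in 32.7% of all windows. Also searched on both strands were the TATA box as TATAAA, found in 12.4% of all windows, the CCAAT box by its letters, found in 33.8%, and the E-box as CACGTG, found in 6.02%. None of these was in either window. These are matches of letters, and no binding was measured.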

How the data were processed

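The authors deposited 1 table of transcript counts per imaged region, with each value the count of 1 gene or blank barcode in 1 segmented cell, per the file headers and the labels. No normalization had been applied to these deposited counts. The submitters' processing notes name Seurat, and how transcripts were decoded and cells segmented is not given in the sources used here. Members, cell groups and gene lists were chosen with earlier results of these data known.

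Counts were summed over cells per region or cell group and divided by the panel total, which left out blanks, and for cell groups also the 5 grouping genes Aqp8, Slc26a3, Des, Fn1 and Vim. A ratio was compared with a fold of 2 only where both sides held at least 20 counts together. Levels have exact 95% Poisson intervals, shares and ratios exact binomial ones. A check on simulated counts covered the ratio intervals only, and those counts were drawn as independent. It therefore cannot show that the intervals hold where counts clump in few cells. All 6 genes were named, and the 3 genes most like each where it exceeded the highest blank. No cells were filtered, no doublets removed and mixing between neighbouring cells was not corrected. A planned edgeR test of cell groups needed cells of both animals, and the male had none, so no p-value is given. Alternatives were other blank limits, levels per cell, cells with at least 10 counts, other group thresholds and other totals. Python 3.11.15, numpy 2.4.6, pandas 2.3.3, scipy 1.17.1 and matplotlib 3.10.9 were used.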

Additional observations from a re-analysis of the deposited data

How the results depend on the processing

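Over 90 results and 295 alternatives, 201 values stayed within a set limit, 80 moved further and 14 turned a ratio whose interval had excluded 1. A further 19, counted among the 201 and the 80, crossed 1 from a ratio whose interval had included it, 7 of them per cell. The limit was the interval for ratios, a fixed factor for counts of members above blanks and the SD for levels over animals. With 2 animals, leaving either out always stays within that SD, so these values do not measure robustness. Fgfr1 counted as unmoved from 1078 to 119 or 2036. The cause was not tested beyond what each setting does. Per cell, ratios turned for Egfr (2.82) and Fgfr1 (1.19) in female region 1 over 0, Tgfbr3 in male region 0 over 1 (1.31) and female over male (2.15), Pdgfra (3.09), Ror2 (2.82), Tgfbr3 (3.42) and Fgfr1 (3.27) in absorptive over ungrouped cells, and Pdgfra in Des cells (2.20). Without female region 1, female over male turned for Pdgfra (0.146) and Tgfbr3 (1.26). Fgfr1 in Des cells turned without cells of 2 groups (0.911) and with grouping genes in the total (0.939), and Pdgfra in Fn1 and Vim cells with that total (0.968). Per cell, 31 more values moved beyond their interval. Among them were Egfr in absorptive cells (15.8), Ror2 in Des cells (12.2), Pdgfra (5.74) and Fgfr1 (6.46) in Fn1 and Vim cells, and, for Fn1 and Vim over absorptive cells, Pdgfra (2.02), Egfr (0.0973), Fgfr1 (1.74), Ror2 (1.81), Tgfbr3 (1.75) and Tgfb2 (0.298). In Fn1 and Vim cells Pdgfra was at 1.74 without cells of 2 groups and 1.93 against all other cells, and Fgfr1 at 2.11 against all others, 2.48 in cells with at least 10 counts and 1.09 with grouping genes in the total. In cells with at least 10 counts, Egfr and Tgfb2 for Fn1 and Vim over absorptive cells were 0 (upper bounds 0.536 and 1.55), and 1 member each exceeded the highest blank of male region 1 and of female region 0. The 4 members with an interval below 1 in absorptive cells became 0 per cell and, among members with at least 20 counts over both sides, 2 in cells with at least 10 counts (Ror2, at 0.215 and under that minimum, also kept its interval below 1), and the 3 above 1 in Fn1 and Vim cells became 6 per cell and 0 with grouping genes in the total. The comparisons of group with group, of cells by Fgfr1 count and without female region 1 were chosen after seeing the data. No paired analysis was possible because the male animal held no cell of any marker-defined group, so the edgeR, TMM, DESeq2, no-filter and leave-one-out fits were not run. Depth limits most statements: 3 of 4 regions had under 1 count per cell, and all group values come from 1 section.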
